A study of Drosophila melanogaster with 12 samples.

Results

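Wing imaginal discs of Drosophila melanogaster larvae were taken 24 h after 4000 R of X-rays (IR+24h), and RNA of their hinge cells (POS) was compared with RNA of the cells outside the traced hinge (NEG). The comparison holds 4 of the 12 libraries of the study, which are 2 POS and 2 NEG libraries chosen by their labels alone. Larvae of all groups were w1118/+ or w1118/Y and carried 30A-GAL4>UAS-G-trace over a wild-type second chromosome. G-trace is a lineage tracer in which GAL4 drives a nuclear RFP together with a recombinase that switches on a lasting nuclear GFP, so POS cells (RFP+GFP+) expressed the driver at the time of the sort and NEG cells (RFP-GFP-) had not expressed it. The other 8 libraries are POS and NEG cells from discs with no radiation (-IR, collected 24 h after mock irradiation) and from discs collected 48 h after 4000 R (IR+48h), again with 2 libraries each. By the paper's account, the IR+48h pools mixed animals of 2 ages, counted from when egg laying was stopped. The -IR discs match the 24 h delay only, so age and time after IR cannot be separated at IR+48h. The part of larval age in differences between the times was not tested. The 30A element sits in an intron of ds and is active in part of the hinge, which is narrower than the domain of ds itself, so NEG holds pouch, notum and whatever hinge cells the driver misses, together with cells that adhere to the disc. Cells that had lost the driver (RFP-GFP+) are in neither pool.

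The wing disc is a folded epithelial sac whose pouch forms the wing blade, whose notum forms the back of the thorax, and whose hinge forms the joint between them. The transcription factor Zfh2 marks the hinge, the Unpaired ligands signal there through the receptor Domeless and the JAK/STAT pathway, and Vestigial specifies the pouch. Ionizing radiation kills many pouch cells through p53 and the caspases, while part of the hinge is spared and can supply cells to the regenerating disc. On the notum side the epithelium carries adult muscle precursors, which express Twist and the FGF receptor Heartless, and tracheal branches, and blood cells (hemocytes) stick to its basal surface.

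Total counts of the 4 IR+24h libraries were 12952142 and 14697067 for NEG and 13067894 and 15175388 for POS, and all 12 libraries lay between 4211088 and 19940040. Levels are given as counts per 1000000 counts of the library (CPM) scaled by TMM factors, and 3 counts correspond to between 0.195 and 0.240 CPM in these 4 libraries. Values of a gene are given in the order replicate 1, replicate 2. Differences are log2 fold changes of POS over NEG with their standard error (SE) from 1 edgeR quasi-likelihood fit over all 12 libraries, and a gene is called where its Benjamini-Hochberg adjusted p was under 0.05. Gene positions are those of the Ensembl BDGP6.54 annotation. As the RNA came from pools of sorted cells, fewer cells of a type and less RNA per cell cannot be told apart.

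At IR+24h, 54 of the 10617 genes tested (0.509%) differed between POS and NEG, of which 22 (0.207%) were higher in POS and 32 (0.301%) were lower. The higher genes included the hinge factors zfh2 and Sox15, ds, the matrix genes Tig, Mp and Mmp1, and w and tra, and the largest increases were those of VGAT and CG10827. Among the lower genes were 6 markers of muscle precursors, 3 markers of hemocytes, and the pouch and notum regulators Optix, al and tup. POS and NEG did not overlap in any of the 54 genes, where 21.6% of all genes lay above and 24.7% below NEG in all 4 pairs of libraries, and 52 of them differed by more than 1 on the log2 scale. At an unadjusted p under 0.05 there were 809 genes (7.62%). With the replicate number as a block within each time point, edgeR called 391 genes (3.68%), of which 199 were higher (1.87%) and 192 lower (1.81%), the 54 included, and the 4 libraries fitted alone gave 501 of 9390 genes (5.34%). The labels do not give this pairing of POS with NEG libraries. Deviations of same-numbered libraries from their group means correlated only weakly at IR+24h (r over genes 0.110). The block also leaves fewer degrees of freedom for the spread, and all p-values given with the block carry these limits.

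**Figure D1:**
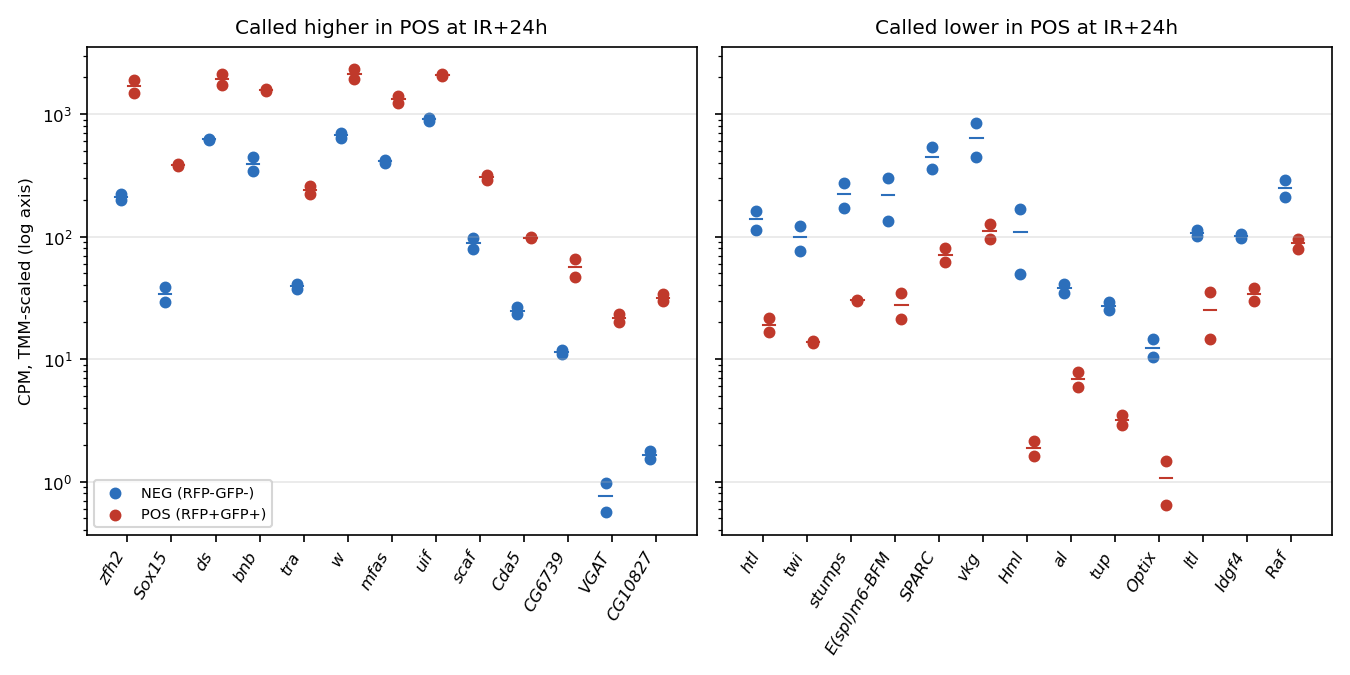
CPM of single libraries at IR+24h on a log axis for 13 genes called higher (left) and 13 called lower (right) in POS, with NEG in blue, POS in red and the group mean as a bar. In each gene the 2 POS libraries lie apart from the 2 NEG libraries, and the POS level is 8.12-fold higher for zfh2, 2.30-fold higher for uif and 6.29-fold lower for SPARC.

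The calls depended on single libraries. As POS and NEG did not overlap in any of the 54 genes, leaving out 1 library could not be expected to reverse a direction. All 54 genes kept their direction without any 1 of the 4 libraries, but 7 of them were called without NEG replicate 1, 33 without NEG replicate 2, 20 without POS replicate 1 and 10 without POS replicate 2, and the 5 called in each case were SPARC, tra, Sox15, bnb and zfh2.

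zfh2 (FBgn0004607, chromosome 4, 501810 to 540874), a zinc-finger homeodomain factor of the hinge, stood at 198 and 220 CPM in NEG and at 1909 and 1488 CPM in POS. Its level was thus 8.12-fold higher in POS, a log2 fold change of 3.02 (SE 0.26, edgeR adjusted p 0.0005). An opposite-strand gene covers 18.7% of its annotated exon bases, and no source used here says whether reads were counted by strand.

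Sox15 (FBgn0005613, 2R, 14201390 to 14212413), an HMG-box factor expressed in the hinge, had 29.1 and 38.5 CPM in NEG and 376 and 394 CPM in POS, a log2 fold change of 3.51 (SE 0.32, edgeR adjusted p 6.54e-04). The gene with the largest increase among those called lies beside it. VGAT, which encodes the vesicular GABA transporter of neurons, begins 140 bases past the end of Sox15 on the same strand. It had 0.561 and 0.968 CPM in NEG against 23.2 and 20.01 CPM in POS (log2 fold change 4.79, SE 0.57, edgeR adjusted p 0.00297). Reads of Sox15 that run past its annotated end cannot be told apart from reads of VGAT in these counts. The neuronal and glial marker list as a whole had 0 of 5 genes called and summed to between 421 and 447 CPM in POS and to between 418 and 420 CPM in NEG.

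ds (FBgn0284247, 2L, 640013 to 714983), the cadherin whose intron holds the driver, had 618 and 627 CPM in NEG and 2119 and 1711 CPM in POS (log2 fold change 1.62, SE 0.18, edgeR adjusted p 0.00245). It was the only 1 of 19 tested genes of the Fat-Dachsous and Hippo pathway to be called (0.509% of all genes were). The median of that list was 0.07 on the log2 scale, against -0.02 for all genes tested. fj, a Golgi kinase that modifies Fat and Dachsous, had 213 and 325 CPM in NEG and 172 and 200 CPM in POS (edgeR adjusted p 0.534).

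The genes w and tra of the higher set are also carried, in whole or in part, by the tools of the experiment. P-element transgenes such as these carry w as their marker, and Stinger reporters hold the nuclear localisation signal of tra, so reads of the resident genes and of the transgenes cannot be told apart. The sex-determination gene tra had 41.2 and 37.3 CPM in NEG and 223 and 260 CPM in POS (log2 fold change 2.62, SE 0.19, edgeR adjusted p 1.52e-04), and the pigment transporter gene w had 704 and 637 CPM in NEG and 1925 and 2322 CPM in POS (log2 fold change 1.66, SE 0.21, edgeR adjusted p 0.00466). In the list of dosage compensation and sex genes, tra was the only 1 of 10 that was called (0.509% of all genes were).

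Of the higher genes outside these groups, bnb had 342 and 442 CPM in NEG and 1589 and 1533 CPM in POS (log2 fold change 1.99, SE 0.19, edgeR adjusted p 6.54e-04). CG10827 went from 1.76 and 1.52 CPM in NEG to 29.6 and 33.8 CPM in POS (log2 fold change 4.27, SE 0.64, edgeR adjusted p 0.0109). The others were CG3097 (log2 fold change 2.58), CG6739 (2.29), CG32091 (1.55), the chromatin gene Ptip (1.31), CG43163 (1.17) and the SUMO protease gene velo (0.90). None of these genes overlapped between the pools.

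The other hinge and proximal genes were less uniform than zfh2 and Sox15. Of the 20 on the list, 2 rose (0.207% of all genes did), 0 fell (0.301%) and the median was 0.10. In all 4 pairs of libraries 7 lay above NEG (21.6% of all genes did) and 5 below NEG (24.7%). upd1, the main Unpaired ligand of the disc, had 6.01 and 12.3 CPM in NEG and 38.9 and 56.6 CPM in POS (log2 fold change 2.38, SE 0.47, edgeR adjusted p 0.0568, limma voom adjusted p 0.0381). The replicate block called 5 genes of the list higher, upd1 (edgeR adjusted p 1.57e-05) and the homeodomain gene Dr (0.00367) among them, and 4 lower, nab (0.00689) among them. With the block 1.87% of all genes were called higher and 1.81% lower. The zinc-finger co-factor nab, which was on this list but which the study names as a pouch determinant, had 65.7 and 66.8 CPM in NEG. In POS nab had 27.5 and 31.1 CPM. hth, a homeodomain factor of the whole proximal disc, had 745 and 825 CPM in NEG and 1096 and 943 CPM in POS, a 1.30-fold difference with no overlap of the pools (edgeR adjusted p 0.854).

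In the JAK/STAT pathway, 0 of 10 tested genes were called (0.509% of all genes were). Of the 10, 8 had a positive log2 fold change (5052 of all 10617 genes did), and the median was 0.40. The ligand genes upd2 and upd3 had 16.0 and 21.6 CPM and 14.6 and 20.9 CPM in NEG, against 41.3 and 61.0 CPM and 25.4 and 39.3 CPM in POS. For all 3 ligand genes the POS libraries lay above the NEG libraries. In all 4 pairs of libraries 6 of the 10 genes lay above NEG, against 21.6% of all genes. The receptor gene dome differed by less, from 265 and 268 CPM in NEG to 352 CPM in both POS libraries (edgeR adjusted p 0.434). The replicate block called upd1 and upd2 (edgeR adjusted p 0.0108 for upd2), and no other gene of the pathway, where it called 3.68% of all genes.

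**Figure D2:**
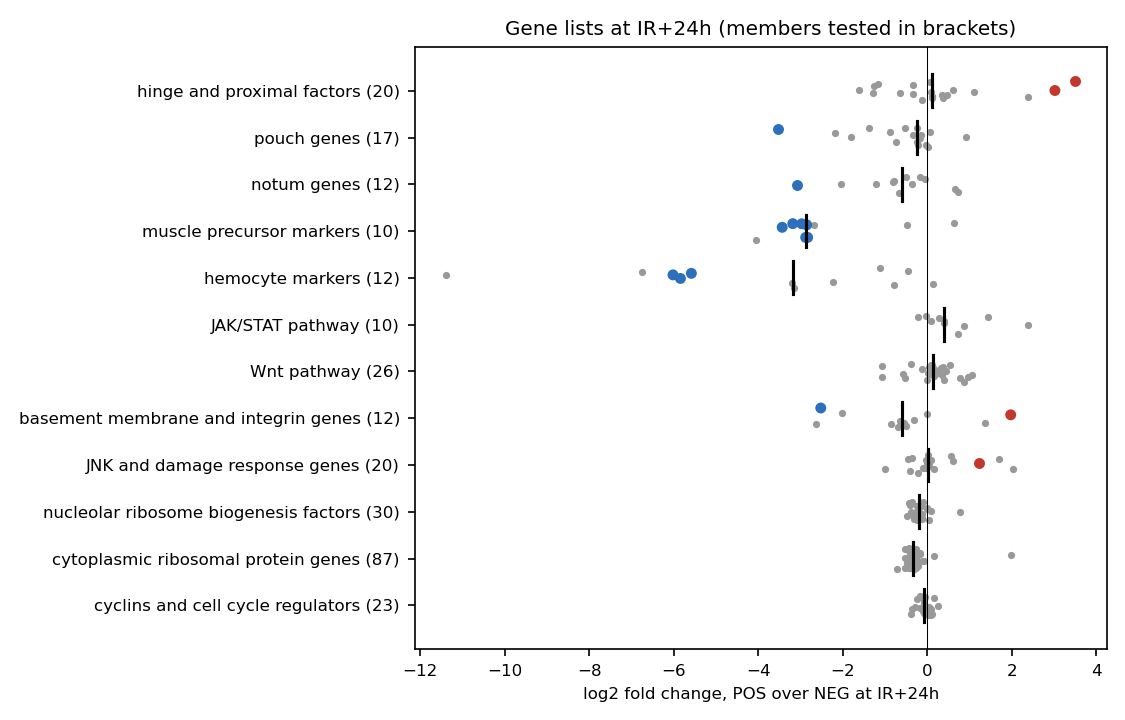
Log2 fold change of POS over NEG at IR+24h for the tested members of 12 gene lists, 1 point a gene, with called genes in red (higher) or blue (lower), the others in grey, and the median of each list as a black bar. Muscle precursor markers (median -2.87) and hemocyte markers (median -3.18) lie far to the left of 0, and the medians of the other 10 lists lie between -0.60 and 0.40.

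Tig, Mp and Mmp1 encode proteins that form or act on the extracellular matrix. Tig (FBgn0011722, 2L, 6415179 to 6423310), a matrix ligand of integrins, had 27.5 and 13.0 CPM in NEG and 138 and 176 CPM in POS (log2 fold change 2.96, SE 0.47, edgeR adjusted p 0.015). Mp, a collagen of the XV/XVIII type, had 14.7 and 14.1 CPM in NEG and 52.5 and 60.9 CPM in POS (log2 fold change 1.97, SE 0.23, edgeR adjusted p 0.00295). The metalloproteinase gene Mmp1, whose product degrades matrix, rose from 396 and 544 CPM in NEG to 965 and 1214 CPM in POS (log2 fold change 1.21, SE 0.19, edgeR adjusted p 0.015). Also higher in POS were the fasciclin-domain protein gene mfas (log2 fold change 1.68), the serine protease homologue gene scaf (1.78), the chitin deacetylase-like gene Cda5 (1.97) and the apical transmembrane protein gene uif (1.20). The mean level in POS was between 2.30-fold (uif) and 3.93-fold (Cda5) that in NEG for these 4 genes.

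Several basement membrane genes lay the other way. SPARC, which encodes a collagen-binding protein, had 537 and 356 CPM in NEG and 61.8 and 80.1 CPM in POS, which is 6.29-fold lower (log2 fold change -2.65, SE 0.29, edgeR adjusted p 0.00224). vkg, one of the paired type IV collagen genes, had 839 and 446 CPM in NEG and 127 and 96.3 CPM in POS (log2 fold change -2.52, SE 0.48, edgeR adjusted p 0.0468), and its neighbour Col4a1, 1417 bases away, had 1364 and 674 CPM in NEG and 195 and 135 CPM in POS (log2 fold change -2.63, SE 0.53, edgeR adjusted p 0.0568). For trol, the perlecan gene, the NEG libraries had 3016 and 1732 CPM and the POS libraries 615 and 563 CPM (edgeR adjusted p 0.0564). Col4a1 and trol passed with the replicate block (edgeR adjusted p 5.07e-06 and 7.32e-05). Ndg, the nidogen gene, was higher in POS than in NEG in all pairs, with 20.3 and 19.1 CPM in NEG and 43.2 and 59.2 CPM in POS (log2 fold change 1.38, SE 0.49, edgeR adjusted p 0.428, and 0.00874 with the block). Of the 12 genes listed for the basement membrane and integrins, 1 rose (Mp), 1 fell (vkg) and the median was -0.60. Of all genes, 0.207% rose and 0.301% fell. The replicate block called 2 of the 12 higher and 7 lower, against 1.87% and 1.81% of all genes. Hemocytes and mesodermal cells also express collagen IV and SPARC, and the markers of both were lower in POS, as given next, but their part in these values was not tested.

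Muscle precursor markers made up 6 of the 32 lower genes. Of 10 tested, 0 rose and 6 fell (0.301% of all genes fell), 9 lay below NEG in all 4 pairs of libraries (24.7% of all genes did), the median was -2.87, and their summed level was 1363 and 799 CPM in NEG against 221 and 197 CPM in POS. None of the 10 was at 0 in any of the 4 libraries. htl, the FGF receptor of these cells, had 162 and 114 CPM in NEG and 16.5 and 21.6 CPM in POS, which is 7.23-fold lower (log2 fold change -2.85, SE 0.39, edgeR adjusted p 0.00726). Its adaptor gene stumps fell by 2.88 on the log2 scale (273 and 170 CPM in NEG against 30.6 and 29.6 CPM in POS), and twi, the bHLH factor of the mesoderm, fell by 2.83 (121 and 75.9 CPM in NEG against 14.1 and 13.5 CPM in POS). Him, an inhibitor of muscle differentiation, fell by 3.43, the Bearded-family gene E(spl)m6-BFM by 2.97 and the muscle actin gene Act57B by 3.18, a gene whose near-identical actin copies make its count uncertain. zfh1, which keeps the precursors undifferentiated, had 319 and 169 CPM in NEG and 44.0 and 31.8 CPM in POS without being called (edgeR adjusted p 0.182, and 4.59e-06 with the replicate block). With limma voom, htl and E(spl)m6-BFM stayed called while Him, Act57B, stumps and twi did not (limma adjusted p 0.277, 0.0966, 0.0511 and 0.107), and with genes limited to those of 1 CPM in all 12 libraries Him, stumps and twi did not pass (edgeR adjusted p 0.0703, 0.111 and 0.078). Mef2, a factor of differentiating muscle, was the least different of those below NEG, with 118 and 91.4 CPM in NEG and 74.3 and 74.5 CPM in POS (edgeR adjusted p 0.864).

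For hemocyte markers, of 12 tested, 0 rose and 3 fell (0.301% of all genes fell), 11 lay below NEG in all 4 pairs (24.7% of all genes did), the median was -3.18, and the summed level was 334 and 179 CPM in NEG against 45.8 and 31.9 CPM in POS. Hml, the clotting protein hemolectin, had 167 and 49.8 CPM in NEG and 2.15 and 1.62 CPM in POS (log2 fold change -5.84, SE 0.68, edgeR adjusted p 0.00295). Pxn, a peroxidase of the matrix made by hemocytes, had 56.7 and 15.8 CPM in NEG and 1.48 and 0.065 CPM in POS (log2 fold change -5.58, edgeR adjusted p 0.0171). He, a hemocyte surface protein, had 6.73 and 3.39 CPM in NEG and 1 count in each POS library, a ratio of 71.3 with an exact 95% interval from counting alone of 19.4 to 595. The prophenoloxidase gene PPO1 of crystal cells had 18.5 and 28.4 CPM in NEG and 0 counts in both POS libraries, which is at least 229-fold lower when POS is set to 3 counts over the group (edgeR adjusted p 0.202, and 0.0146 with the replicate block). With the replicate block 7 markers were called lower (1.81% of all genes were). With limma voom none of Hml, Pxn and He passed (limma adjusted p 0.0733, 0.188 and 0.0966), and He did not pass with a block shared by all time points (edgeR adjusted p 0.0674). NEG replicate 1 was the higher NEG library for Hml, Pxn and He, and NEG replicate 2 for PPO1.

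Beyond those lists, Nplp2, a neuropeptide-like precursor, had 22.2 and 11.5 CPM in NEG and 0 counts in both POS libraries, which is at least 159-fold lower against 3 counts over the group (edgeR adjusted p 0.00494). The water channel gene Prip had 1 count in POS in all, a ratio of 115 with a counting interval of 20.2 to 4573. The immunoglobulin-family gene beat-IIb (ratio 58.3, interval 24.7 to 181), the G protein subunit gene Ggamma30A (44.7, 14.9 to 220), the thioester protein gene Tep1 (31.2, 15.6 to 73.2) and the tubulin gene alphaTub85E (39.3, 20.5 to 86.7) were likewise close to the floor of detection in POS, and the last of them shares sequence with other tubulins. eEF1alpha2, a translation elongation factor with a closely related copy, had 158 and 94.6 CPM in NEG and 9.70 and 6.37 CPM in POS (log2 fold change -3.98, SE 0.56, edgeR adjusted p 0.00755). The remaining called genes with lower levels were ltl, a leucine-rich repeat gene (log2 fold change -2.11), Ugt58Fa, a UDP-glycosyltransferase gene (-1.83), the neuroligin gene Nlg1 (-3.57), the muscle actin gene Act87E (-2.29), meso18E (-2.81), CG16885 (-3.25), CG15347 (-4.19), CG12768 (-2.66) and CG32813 (-2.01). The count of Act87E is uncertain for the reason given for Act57B.

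Lists of pouch and notum genes each held 1 called gene. Among 17 pouch genes 0 rose and 1 fell, the median was -0.25, 14 had a negative log2 fold change and 10 lay below NEG in all pairs. Among 12 notum genes 0 rose and 1 fell, the median was -0.59, 10 had a negative log2 fold change and 7 lay below NEG in all pairs. Of all 10617 genes tested, 0.301% fell, 5557 had a negative log2 fold change and 24.7% lay below NEG in all pairs. Optix, a homeodomain factor of the anterior pouch, had 14.5 and 10.3 CPM in NEG and 1.48 and 0.650 CPM in POS (log2 fold change -3.54, SE 0.53, edgeR adjusted p 0.0109). tup, a LIM-homeodomain factor of the notum, had 25.3 and 29.3 CPM in NEG and 2.89 and 3.51 CPM in POS (log2 fold change -3.09, SE 0.54, edgeR adjusted p 0.0305). The homeodomain gene al, on neither list, had 41.2 and 34.5 CPM in NEG and 7.85 and 5.91 CPM in POS (log2 fold change -2.46, SE 0.32, edgeR adjusted p 0.00504).

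The pouch selector vg differed by less, with 296 and 274 CPM in NEG and 153 and 155 CPM in POS (log2 fold change -0.88, SE 0.20, edgeR adjusted p 0.116). dve, a homeobox gene of the pouch, had 101 and 96.5 CPM in NEG and 45.7 and 30.7 CPM in POS (edgeR adjusted p 0.09), and pnr, the GATA factor of the medial notum, had 14.9 and 17.5 CPM in NEG and 3.26 and 4.55 CPM in POS (edgeR adjusted p 0.16). The replicate block called these 3 genes lower (edgeR adjusted p 4.66e-04 for vg, 0.00131 for dve and 0.00604 for pnr), and 6 pouch genes and 3 notum genes in all, where it called 1.81% of all genes lower. bi, a Dpp target on the pouch list that is also expressed beyond the pouch, lay the other way, with 179 and 259 CPM in NEG and 454 and 373 CPM in POS (edgeR adjusted p 0.135, and 0.0135 with the block). On the notum list the block called vn higher (log2 fold change 0.72, edgeR adjusted p 0.0387 with the block). With the block 1.87% of all genes were called higher. The level in POS was thus 11.6-fold lower for Optix and 8.51-fold lower for tup, against 1.85-fold for vg.

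Other signalling lists likewise held 0 called genes, where 0.509% of all genes were called, so that lists of this size were at the background. The median of 26 Wnt pathway genes tested was 0.13. The replicate block called 2 of the 26 higher and 2 lower, against 1.87% and 1.81% of all genes. wg, the main Wnt ligand, which is expressed in rings around the hinge, had 23.1 and 30.0 CPM in NEG and 54.3 and 49.7 CPM in POS (edgeR adjusted p 0.282, and 0.0497 with the replicate block), and Wnt5, another ligand, had 87.8 and 84.5 CPM in NEG and 136 and 115 CPM in POS (edgeR adjusted p 0.402). No gene was called among 15 of the Dpp pathway, 10 of Hedgehog and the posterior compartment, 11 of EGFR signalling and 14 of Notch signalling. There the replicate block called 1, 0, 2 and 2 genes, against 3.68% of all genes. Raf and Idgf4, which were called, were on none of these lists. Raf, the kinase below Ras, had 287 and 211 CPM in NEG and 96.3 and 79.6 CPM in POS (log2 fold change -1.50, SE 0.24, edgeR adjusted p 0.0153), and Idgf4, a chitinase-like secreted growth factor, had 98.2 and 105 CPM in NEG and 29.9 and 38.1 CPM in POS (log2 fold change -1.58, SE 0.25, edgeR adjusted p 0.015).

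Genes of the response to tissue damage were examined because the discs had been irradiated 24 h before. Of 20 genes of JNK signalling and damage, 1 rose (Mmp1) and 0 fell, and the median was 0.01. Of all genes, 0.207% rose and 0.301% fell. Ilp8, the insulin-like hormone with which damaged discs delay pupariation, had 47.4 and 74.3 CPM in NEG and 177 and 322 CPM in POS (log2 fold change 2.03, SE 0.42, edgeR adjusted p 0.0657). Ets21C, a transcription factor acting with JNK in damaged discs, had 103 and 138 CPM in NEG and 333 and 452 CPM in POS (log2 fold change 1.70, SE 0.33, edgeR adjusted p 0.0528), although 28.3% of its exon bases overlap a gene on the opposite strand. Both were called with the replicate block (edgeR adjusted p 7.18e-06 and 2.74e-05) and with limma voom (limma adjusted p 0.0256 for each). The block called 4 of the 20 genes higher and 1 lower, against 1.87% and 1.81% of all genes. Spp, a signal peptide peptidase gene that begins 271 bases past the end of Ets21C on the same strand, was called higher. It had 94.5 and 92.8 CPM in NEG and 150 and 174 CPM in POS (log2 fold change 0.79, edgeR adjusted p 0.0425). Reads of Ets21C that run past its annotated end cannot be told apart from reads of Spp. wgn, a receptor of the TNF ligand Eiger that acts above JNK, lay lower in POS, with 68.9 and 57.4 CPM in NEG and 34.5 and 28.5 CPM in POS (edgeR adjusted p 0.251, and 0.00114 with the block).

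Lists of apoptosis, DNA repair, cell cycle and stress genes held no called gene, and with 0.509% of all genes called an absence from lists of this size is close to the background. Among 13 apoptosis genes tested the median was 0.01, and their summed level was between 985 and 1167 CPM in NEG and between 1027 and 1078 CPM in POS. Of 20 genes of the DNA damage response 0 were called and the median was 0.08, and among 23 cyclins and cell cycle regulators 0 were called, with log2 fold changes between -0.39 and 0.25. For heat shock proteins (14 tested) and glutathione S-transferases (33 tested) the replicate block called 2 and 4 genes higher, against 1.87% of all genes.

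Most genes of the ribosome lists were slightly lower in POS. Of 87 cytoplasmic ribosomal protein genes tested, 0 were called, yet 85 had a negative log2 fold change, against 5557 of all 10617 genes. In all 4 pairs of libraries 80 lay below NEG, against 24.7% of all genes. The median of the 87 genes was -0.34. These genes summed to between 137859 and 158448 CPM in NEG and to between 113722 and 120643 CPM in POS. Of 30 nucleolar factors of ribosome biogenesis 0 were called and 26 were below 0, with a median of -0.20. Fib, the rRNA methyltransferase fibrillarin, had 307 and 263 CPM in NEG and 218 and 241 CPM in POS (edgeR adjusted p 0.704), and RpI135, a subunit of RNA polymerase I, had 80.6 and 79.2 CPM in NEG and 58.3 and 65.0 CPM in POS (edgeR adjusted p 0.706). Myc, which drives ribosome biogenesis and of whose exon bases 40.9% overlap another gene, had 507 and 516 CPM in NEG and 377 and 334 CPM in POS (edgeR adjusted p 0.315, and 0.048 with the block). Scaling by library size alone moved the median of all genes from -0.02 to 0.05 and left those of the ribosomal protein and nucleolar lists at -0.27 and -0.13.

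The same contrast in the other libraries shows what the irradiated pools had in common with unirradiated ones. Without IR, 284 genes (2.67%) differed between POS and NEG, and at IR+48h 35 genes (0.330%) differed. Of the 54 genes called at IR+24h, 53 had the same sign without IR and 46 were called there, and all 54 had the same sign at IR+48h, where 28 were called. The gene of opposite sign without IR was Tig, and its log2 fold change at IR+48h was 0.00. The 23 genes called at all 3 times comprised 14 higher genes, zfh2, Sox15, ds, VGAT, bnb, w and tra among them, and 9 lower genes, Hml, htl, al and Raf among them. In the order -IR, IR+24h, IR+48h, zfh2 had log2 fold changes of 3.30, 3.02 and 2.92, and Sox15 had 3.66, 3.51 and 3.63. The 3 genes called at no other time, all higher, were Tig, Spp and Mmp1. Of these, Mmp1 and Spp were also higher in POS at the other times without being called. In the order -IR, IR+48h, the log2 fold changes were 0.73 and 0.93 for Mmp1 (edgeR adjusted p 0.0719 and 0.084). For Spp they were 0.42 and 0.38 (edgeR adjusted p 0.166 and 0.617). The difference between IR+24h and the other times passed for neither gene in edgeR with or without the block.

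**Figure D3:**
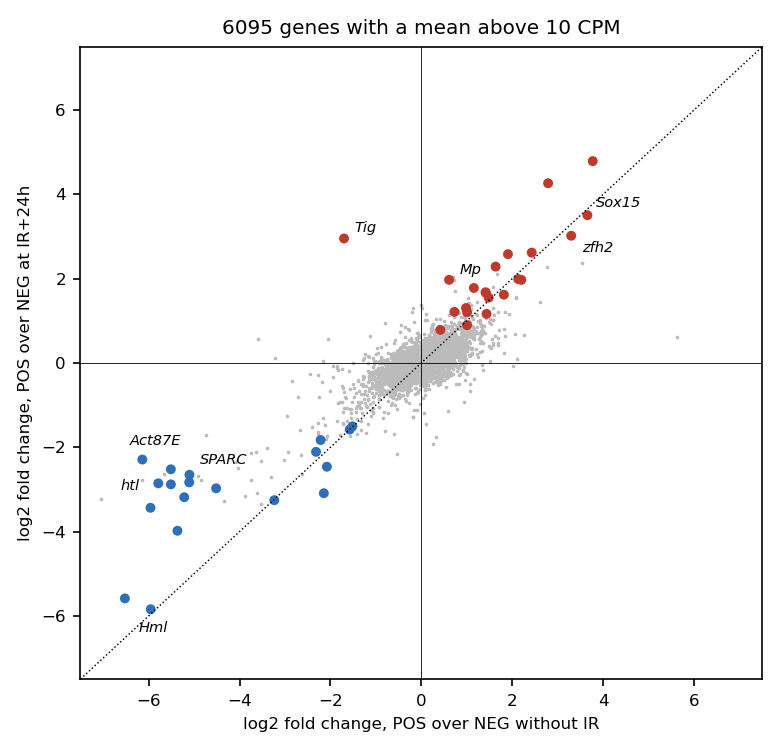
Log2 fold change of POS over NEG without IR (x axis) and at IR+24h (y axis) for 6095 genes whose mean exceeded 10 CPM, with genes called at IR+24h in red (higher) or blue (lower) and equality as a dotted line. Hinge genes such as zfh2 and Sox15 lie near the line, muscle precursor and matrix genes such as htl and SPARC lie above it, and Tig has opposite signs. PPO1 and PPO2 fall outside the axes.

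Among the 6095 genes with a mean above 10 CPM, absolute log2 fold changes had medians of 0.27, 0.17 and 0.14 in the order -IR, IR+24h, IR+48h, and 347, 181 and 141 genes exceeded 1. Log2 fold changes at IR+24h correlated across these genes with those without IR (Pearson's r 0.766) and with those at IR+48h (r 0.776), though genes are not independent replicates. The -IR replicates were also less alike than the IR+24h replicates, with correlations of log2 CPM of 0.923 for NEG and 0.944 for POS without IR against 0.974 and 0.979 at IR+24h, and NEG replicate 1 without IR was the shallowest library. The part of this spread in the larger differences without IR was not tested.

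A test of the difference itself, POS over NEG at IR+24h against POS over NEG without IR, called 0 of 10617 genes (edgeR), while 353 (3.32%) had an unadjusted p under 0.05, and DESeq2 called 15 and edgeR with the replicate block 36. Against IR+48h the same test called 0 genes, with 103 (0.970%) at an unadjusted p under 0.05, 3 by DESeq2 and 5 with the block. The differences described next therefore did not pass in the edgeR fit without the block.

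Tig was the called gene whose sign differed from that without IR. It had 10.4 and 20.9 CPM in NEG and 5.80 and 4.22 CPM in POS without IR, 27.5 and 13.0 CPM in NEG and 138 and 176 CPM in POS at IR+24h, and 34.9 and 27.1 CPM in NEG and 44.1 and 17.8 CPM in POS at IR+48h. The POS libraries at IR+24h stood above all other 10 libraries. Its log2 fold change (POS over NEG) was 4.66 larger at IR+24h than without IR (edgeR adjusted p 0.107, and 9.04e-04 with the replicate block). The log2 fold change of Mp was 1.97 at IR+24h and 0.61 without IR (edgeR adjusted p 0.19 for the latter), with NEG at 33.6 and 23.6 CPM without IR and at 14.7 and 14.1 CPM at IR+24h. Mmp1 had 155 and 164 CPM in NEG and 246 and 282 CPM in POS without IR, so both pools had higher levels at IR+24h. Ilp8 was at 4.60 and 1.67 CPM in NEG and at 5.72 and 2.98 CPM in POS without IR, and Ets21C at 48.2 and 31.1 CPM and at 87.3 and 43.8 CPM. For Mp, Mmp1, Ilp8 and Ets21C the difference between IR+24h and -IR in POS over NEG did not pass in edgeR with or without the block, while Mp passed with DESeq2 (DESeq2 adjusted p 0.0477).

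**Figure D4:**
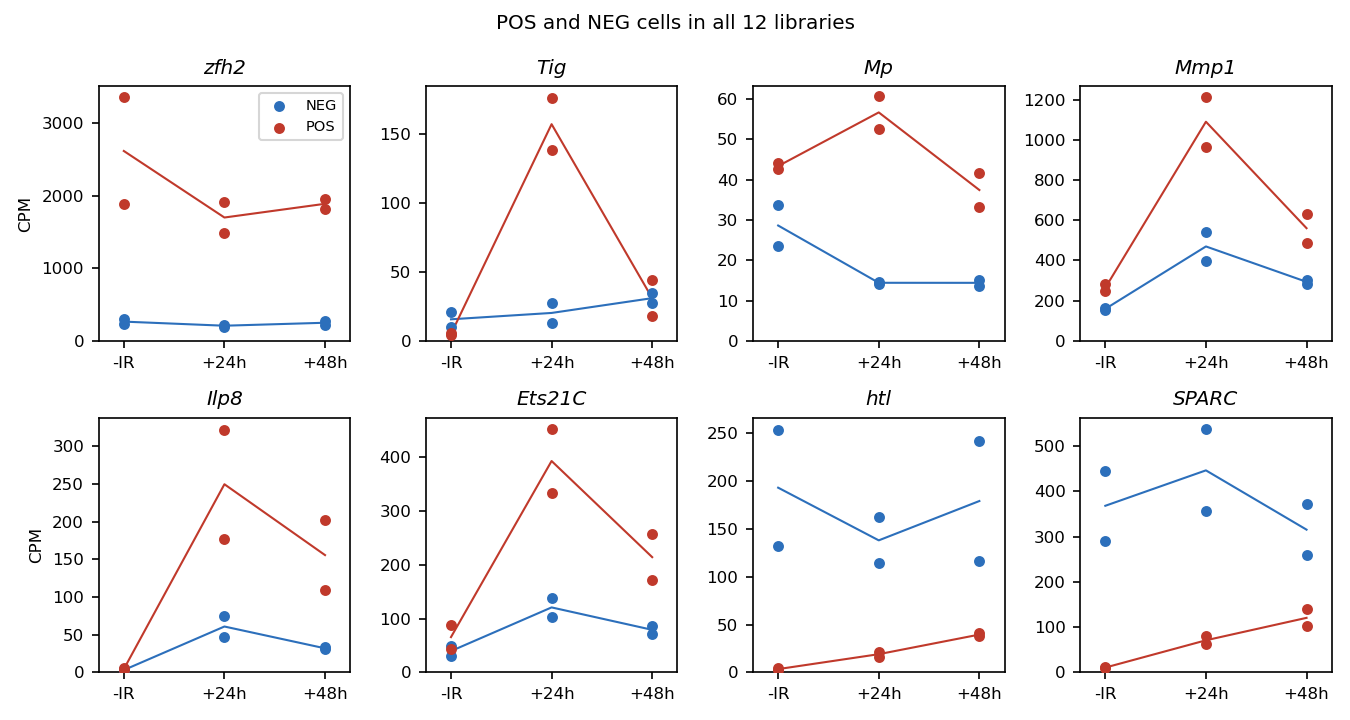
CPM of 8 genes in all 12 libraries without IR (-IR) and 24 and 48 h after IR, 1 point a library, with NEG in blue, POS in red, lines through the group means and axes that start at 0. Tig, Mmp1, Ilp8 and Ets21C are highest in the POS libraries at IR+24h, zfh2 stays far above NEG at each time, and the POS means of htl and SPARC are highest at IR+48h.

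Muscle precursor markers had less negative log2 fold changes at IR+24h than without IR. Their median log2 fold change went from -5.16 (-IR) to -2.87 (IR+24h) and -1.84 (IR+48h). At IR+24h 10 of 10 were less negative or more positive than without IR, against 5224 of all 10617 genes. For that change 7 of 10 had an unadjusted p under 0.05 (edgeR), against 3.32% of all genes. Their summed level in POS was between 92.3 and 159 CPM without IR, between 197 and 221 CPM at IR+24h and between 365 and 393 CPM at IR+48h. Larval age was mixed in the IR+48h pools, and its part in the IR+48h values was not tested. htl in POS was at 2.78 and 4.16 CPM without IR, at 16.5 and 21.6 CPM at IR+24h and at 41.4 and 37.8 CPM at IR+48h, and its log2 fold change was 2.93 less negative at IR+24h than without IR (edgeR adjusted p 0.433, and 0.00227 with the block). Of the other members, twi, stumps, Him, zfh1 and E(spl)m6-BFM passed this test with the block (edgeR adjusted p between 9.11e-04 and 0.00937). The muscle actin gene Act87E, outside this list, had the smallest unadjusted p of all genes for the change. Its log2 fold change was -6.14 without IR and -2.29 at IR+24h (edgeR adjusted p 0.0901 for the change, and 9.04e-04 with the block).

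The log2 fold changes of SPARC and the collagen genes were less negative at IR+24h as well. In POS, SPARC was at 10.2 and 11.2 CPM without IR, at 61.8 and 80.1 CPM at IR+24h and at 139 and 102 CPM at IR+48h, while in NEG it stayed between 259 and 537 CPM. The log2 fold change was 2.45 less negative at IR+24h than without IR (edgeR adjusted p 0.195, and 0.00276 with the block). For vkg and Col4a1 it was 2.99 and 3.04 less negative (edgeR adjusted p 0.834 and 0.945, and 9.04e-04 and 5.57e-04 with the block). These genes moved with the muscle precursor markers in POS, whose part in the change was not tested. Hemocyte markers had no such pattern, with medians of -3.40, -3.18 and -2.82 in the same order of times. For the change 0 of 12 had an unadjusted p under 0.05 (edgeR), against 3.32% of all genes.

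Nucleolar factors also had a less negative median at IR+24h. Their median log2 fold change was -0.71 without IR, -0.20 in the IR+24h libraries and -0.27 in the IR+48h libraries. Without IR 11 of 30 were called lower, against 187 of all 10617 genes. For 11 of 30 the change from -IR to IR+24h had an unadjusted p under 0.05 (edgeR), against 3.32% of all genes. NHP2, a protein of snoRNA particles, had 50.1 and 74.2 CPM in NEG and 28.7 and 31.5 CPM in POS without IR, and 77.8 and 72.1 CPM in NEG and 68.1 and 71.6 CPM in POS at IR+24h, where the group means were 1.07-fold apart. Tsr1, an assembly factor of the small subunit, went from 60.7 and 63.4 CPM in POS without IR to 116 and 115 CPM at IR+24h, with NEG at 118 and 126 CPM and at 131 and 126 CPM. Neither gene passed the test of the change, with an edgeR adjusted p of 0.171 for NHP2 and 0.115 for Tsr1 with the block. Ribosomal protein genes gave medians of -0.45, -0.34 and -0.13 at the 3 times, with 0 of 87 at an unadjusted p under 0.05 for the change from -IR to IR+24h.

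A change in the other direction was seen for kek1, a transmembrane inhibitor of the EGF receptor. It had 190 and 185 CPM in NEG and 462 and 488 CPM in POS without IR (log2 fold change 1.34, edgeR adjusted p 5.17e-04), and 396 and 377 CPM in NEG and 504 and 437 CPM in POS at IR+24h (0.28, edgeR adjusted p 0.678). The difference of -1.06 had an edgeR adjusted p of 0.349, and of 0.00937 with the replicate block. In NEG both IR+24h libraries lay above both -IR libraries, while in POS the libraries of these times overlapped.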

How the data were processed

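Poly-A RNA of sorted POS and NEG cells was sequenced in 3 conditions, giving 2 libraries in each of 6 groups, which were read from the sample labels. Discs were pooled over several crosses and sorts, and the study describes the replicates as independent biological samples, so p-values measure the spread between such pools. The authors trimmed reads with BBDuk, mapped and counted them with STAR 2.6.0a on the BDGP6.22 annotation, and deposited raw counts per gene as whole numbers. The strand of counting is not given in the sources used here. The count table has 17753 genes and 1 column that matches no sample, which was not used.

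Counts were fitted with edgeR 4.0.16 (quasi-likelihood F test, two-sided, TMM factors, filterByExpr) as 6 group means over 12 libraries, which left 10617 genes, and p-values were adjusted by Benjamini-Hochberg over all of them with a threshold of 0.05. Alternatives used limma 3.58.1 (voom), DESeq2 1.42.0, other filters and scaling, fewer libraries and a block for the replicate number. The block pairs POS and NEG libraries by the replicate number in their labels, which do not say that same-numbered libraries belong together. Deviations of same-numbered libraries from their group means correlated with r over genes of 0.110 for IR+24h, 0.471 for -IR and 0.162 for IR+48h. Counting intervals are exact at the 0.95 level and cover counting error only. The fit was tested on simulated data. Members and gene lists were chosen with earlier results of these data known. Named genes were the members of the hinge, pouch, notum and muscle lists, the 15 largest called changes in each direction, called members of other lists, genes named by the study and the 5 smallest p-values in each direction of the tests of difference, together with genes chosen after their values were seen (VGAT's and Spp's neighbours, PPO1, Ilp8, Ets21C, wgn, dome, upd2, upd3, fj, hth, bi, trol, Col4a1 and further called genes). NHP2, Fib and Ndg were also chosen outside the rules above. Not every gene that fits is reported. No promoter or protein sequence was used, and the description of promoter motifs was not run. Depth was compared as total counts, which ranged from 4211088 to 19940040.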

Additional observations from a re-analysis of the deposited data

Results flagged for a closer look

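Tig and Cpr49Ac differed in sign between IR+24h and -IR, with every POS and NEG pair of libraries on 1 side without IR and on the opposite side at IR+24h. The log2 fold change (POS over NEG) of Tig was -1.70 without IR and 2.96 at IR+24h, a difference of 4.66 (edgeR unadjusted p 2.01e-05, adjusted p 0.107). For Cpr49Ac, a cuticle protein gene, the value was -3.59 without IR (24.9 and 94.0 CPM in NEG against 4.98 and 5.02 CPM in POS) and 0.58 at IR+24h (32.2 and 17.0 CPM in NEG against 40.6 and 32.9 CPM in POS), a difference of 4.17 (edgeR unadjusted p 2.77e-04, adjusted p 0.49). With the replicate block both had an edgeR adjusted p of 9.04e-04.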

How the results depend on the processing

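Of the values of named genes under the alternatives 1028 kept their side of the threshold, 129 passed it and 185 no longer did, and none changed direction. POS against NEG at IR+24h gave 54 calls, which became 177 with DESeq2 (82 higher, 95 lower), 335 with no filter (158 higher, 177 lower), 26 with 1 CPM in all 12 libraries (19 higher, 7 lower), 501 with only the groups compared (285 higher, 216 lower), and between 7 and 99 when 1 library was left out, the 99 without NEG replicate 1 of the -IR group. Without IR the 284 calls became 701 with DESeq2, 751 with no filter, 20 with only the groups compared and between 138 and 666 when 1 library was left out. At IR+48h the 35 calls became 130, 255, 13 with 1 CPM in all 12 libraries, 172 with only the groups compared, and between 7 and 65 when 1 library was left out. The test of IR+24h against -IR gave 0 calls, and 15 with DESeq2, 64 with no filter and between 0 and 5 when 1 library was left out, and that against IR+48h gave 0 calls, and 3, 17 and between 0 and 1. limma voom gave 42 calls at IR+24h (29 higher, 13 lower), 33 of them among the 54, and the library size scaling gave 65 (29 higher, 36 lower). The causes of these changes were not tested.

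The replicate block within each time point gave 391 calls at IR+24h, 1249 without IR, 270 at IR+48h, and 36 and 5 for the tests of difference. Of the named genes, 34 that were not called passed with this block, some of them with other alternatives too, and no call was lost. A block shared by all time points gave 50 calls at IR+24h and 1 for the test against -IR, and lost Spp, He, Tep1, CG15347, Nlg1, vkg and CG32813 (edgeR adjusted p between 0.0563 and 0.069).

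With 2 libraries a group, genes close to 3 counts in POS have wide intervals, as given for He and Prip, and a gene not called is not shown to be equal.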
